A study of Mus musculus with 24 samples.

Results

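The receptor chains of the common gamma chain family were examined in 24 CT26 tumours, as 7 genes of the 750 in the deposited table. The 7 are Il2ra, Il2rb, Il2rg, Il7r, Il21r, Il4ra and Il15ra, picked by symbol, and all 7 passed the minimum for testing (a mean level of 20 normalised counts or more, taken on the log2 scale), as did 600 genes in all. They were picked with earlier results of these data known. In those results Il2ra differed by the culture of the tumour cells, and Il7r, Il21r and Il2rg followed the antibody given to the mice. For these 4 genes the effects of culture and of antibody are therefore a description and carry no test.

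Cytokines of this family, among them interleukins 2, 4, 7, 15 and 21, signal through receptors that share the common gamma chain, the product of Il2rg. A private chain recognises the ligand (the products of Il7r, Il21r, Il4ra, or Il2ra and Il15ra, which add affinity for interleukin 2 or 15), Il2rb encodes a signalling chain shared by the receptors for interleukins 2 and 15, and the kinases JAK1 and JAK3 then activate STAT proteins. In lymphocytes these receptors govern survival, expansion and differentiation: Il2ra (CD25) is carried at steady state by regulatory T cells and appears on other T cells after activation, while Il7r marks naive and memory T cells. Il4ra is also widely present on myeloid cells, where it serves alternative activation.

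CT26 is a mouse colon carcinoma line derived from BALB/c mice. The cells were kept for 40 weeks with 0.5 uM NP1867, an inhibitor of the mismatch repair protein PMS2, or with its solvent DMSO, and were then grown under the skin of BALB/c mice, the strain of origin with a working immune system. The mice received 4 doses of 5 mg/kg of either the anti-PD-1 clone RMP1-14, which blocks an inhibitory receptor of T cells, or the isotype control clone 2A3, both rat IgG2a. There were thus 4 groups of 6 tumours: NP1867 anti-PD-1, NP1867 isotype, DMSO anti-PD-1 and DMSO isotype. No group held untreated mice or cells that had not been in long culture. The sources used here name 1 line and no separate cultures, so a property that the line acquired by chance over those weeks and an action of NP1867 cannot be told apart, and animal ages are not given in the sources used here. Tumours were taken on day 19, 24 hours after the last dose, from animals close to the mean tumour volume of their group, and RNA from fixed sections was counted on a NanoString immune panel, which reads each molecule with a gene-specific probe and no amplification. Values below are deposited log2 normalised counts, and a level of 1 probe is not compared with that of another.

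Counts recovered from the deposited values summed to between 62699 and 687032 per tumour, with a median of 356768. The 4 tumours under 200000 counts were all of the DMSO culture, namely anti-PD-1 tumours 11 and 37 and isotype tumours 6 and 23, so several of the differences below are also given without them. DMSO isotype tumour 23 had the fewest counts and the largest scaling factor, 5.46. Tumours are named by the number in their title. Of 7 listed carcinoma or epithelial markers, 3 could be tested (Cdh1, Muc1 and Itgb4) and Epcam was below the minimum. The cytokeratin genes Krt8, Krt18 and Krt19 had no values under these symbols. Itgb4 was lower in the NP1867 culture by 0.82 on the log2 scale (limma, adjusted p = 0.0316). The other 2 differed in the opposite direction, by at most 0.15, and were not called. All 24 tumours held counts of T cell, macrophage and fibroblast markers, but a log2 value cannot hold an empty count, so this was fixed in advance. The panel has few genes with which to check the carcinoma cells themselves.

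Promoters of the chains that differ most in their behaviour here are shown first, because they are the stretches through which transcription of these genes is controlled. The windows are RefSeq sequences on GRCm38.p6, running from 250 bases before to 50 bases after the start site used in the table, 5′ to 3′ on the strand of the gene, and 6 of the 7 genes matched an entry. Capitals mark matches to 1 of 4 motifs searched on both strands: TTCNNNGAA (STAT5), GGG and CC with 5 free bases between (NF-kB), TGANTCA (AP-1) and GAAA repeated after 2 free bases (IRF). The Il2ra window lies at chr2:11642542-11642841 on the plus strand, Il7r at chr15:9529827-9530126 on the minus strand, Il21r at chr7:125603179-125603478 on the plus strand and Il2rg at chrX:101268206-101268505 on the minus strand.
Il2ra: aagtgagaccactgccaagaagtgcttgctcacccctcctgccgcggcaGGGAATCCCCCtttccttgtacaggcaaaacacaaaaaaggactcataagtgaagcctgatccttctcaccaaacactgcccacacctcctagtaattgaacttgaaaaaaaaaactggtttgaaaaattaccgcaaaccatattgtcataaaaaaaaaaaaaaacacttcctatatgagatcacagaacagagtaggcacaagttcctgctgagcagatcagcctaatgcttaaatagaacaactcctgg
Il7r: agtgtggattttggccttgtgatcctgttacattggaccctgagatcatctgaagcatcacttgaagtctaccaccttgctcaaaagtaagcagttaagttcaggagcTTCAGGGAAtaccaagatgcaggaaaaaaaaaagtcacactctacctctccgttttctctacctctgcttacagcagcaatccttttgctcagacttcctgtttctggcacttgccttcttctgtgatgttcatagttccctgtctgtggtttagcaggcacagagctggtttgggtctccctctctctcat
Il21r: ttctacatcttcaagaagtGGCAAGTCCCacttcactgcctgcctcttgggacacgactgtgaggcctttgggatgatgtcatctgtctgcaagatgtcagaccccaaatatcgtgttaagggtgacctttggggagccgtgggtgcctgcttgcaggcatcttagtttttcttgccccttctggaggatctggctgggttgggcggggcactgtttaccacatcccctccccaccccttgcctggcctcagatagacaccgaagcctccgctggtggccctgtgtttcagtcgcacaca
Il2rg: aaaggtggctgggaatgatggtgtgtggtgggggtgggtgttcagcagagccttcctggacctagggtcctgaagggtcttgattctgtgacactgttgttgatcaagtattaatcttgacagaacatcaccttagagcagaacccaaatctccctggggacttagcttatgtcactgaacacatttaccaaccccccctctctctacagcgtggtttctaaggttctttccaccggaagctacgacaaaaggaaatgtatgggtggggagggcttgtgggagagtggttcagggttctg
In Il2ra the capitals cover a single stretch with 3 overlapping matches of the NF-kB type motif. The same bases, from -201 from the start site, matched on both strands, and those from -200 matched on the opposite strand only. Il7r held 1 match of the STAT5 type motif, at base -142 from its start site, and no NF-kB type match. The Il21r window held 1 NF-kB type match, at base -231 from its start site, and the Il2rg window none of the 4. The NF-kB type letters were in 50.8% of all 32851 promoters of the table and in 4 of the 6 members with a promoter (Il2ra, Il21r, Il4ra and Il15ra). Il15ra also had another window, without a match, so this count by gene is not on the same footing as the share by promoter. The STAT5 type letters were in 8.30% of all promoters, the AP-1 type in 7.81% and the IRF type in 3.44%. Among the 547 promoters of tested genes the shares were 61.4% for the NF-kB type, 11.3% for STAT5, 11.2% for AP-1 and 7.31% for IRF. A match describes letters in a window and does not show that a factor binds there.

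The genes sit in 2 close pairs and 3 separate places in GRCm38.p6. Il2ra (chromosome 2, 11642792 to 11693194) and Il15ra (11705172 to 11733985) are neighbours, 12 kb apart with 0 coding genes between them. Il4ra (chromosome 7, 125552271 to 125579474) and Il21r (125603252 to 125634397) are likewise neighbours, 23.8 kb apart with 0 coding genes between. Il7r and Il2rb share chromosome 15 but have 332 coding genes between them, and Il2rg lies on X. On the log2 scale the neighbours Il2ra and Il15ra were 1.11 and 0.09 higher in NP1867 than in DMSO tumours, and Il4ra and Il21r differed by 0.40 and -0.01.

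Il2ra was, averaged over both antibodies, the chain that differed most by the culture of the tumour cells. This gene, the high-affinity chain for interleukin 2, ran from 5.85 to 7.62 (median 6.67) in NP1867 anti-PD-1 tumours and from 5.49 to 6.45 (median 5.99) in NP1867 isotype tumours. It ran from 4.68 to 5.95 (median 5.80) in DMSO anti-PD-1 tumours and from 4.35 to 6.15 (median 4.74) in DMSO isotype tumours. All 12 NP1867 tumours were above the mean of the 12 DMSO tumours, 6 of them were above the highest DMSO tumour, and 7 of the 12 DMSO tumours were below the lowest NP1867 tumour, so the cultures overlapped in part.

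Averaged over both antibodies, Il2ra was 2.16-fold higher in NP1867 than in DMSO tumours, 1.11 ± 0.23 (SE) on the log2 scale. The difference was 1.16 ± 0.32 under anti-PD-1 and 1.07 ± 0.32 under isotype. Under isotype, 5 of 6 DMSO tumours lay below the lowest NP1867 tumour. The exception was tumour 23, where the level of 6.15 came from 13 counts, with an exact Poisson interval of 6.92 to 22.2 counts (95%, counting error only) or 5.24 to 6.92 on the log2 scale, whereas the other 5 DMSO isotype tumours reached at most 5.05. Without tumour 23 the difference was 1.24 averaged and 1.31 under isotype, and without the 4 tumours of low counts it was 1.19 and 1.30. In whole tumours, more cells that carry a receptor and more RNA per cell cannot be told apart.

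**Figure D1:**
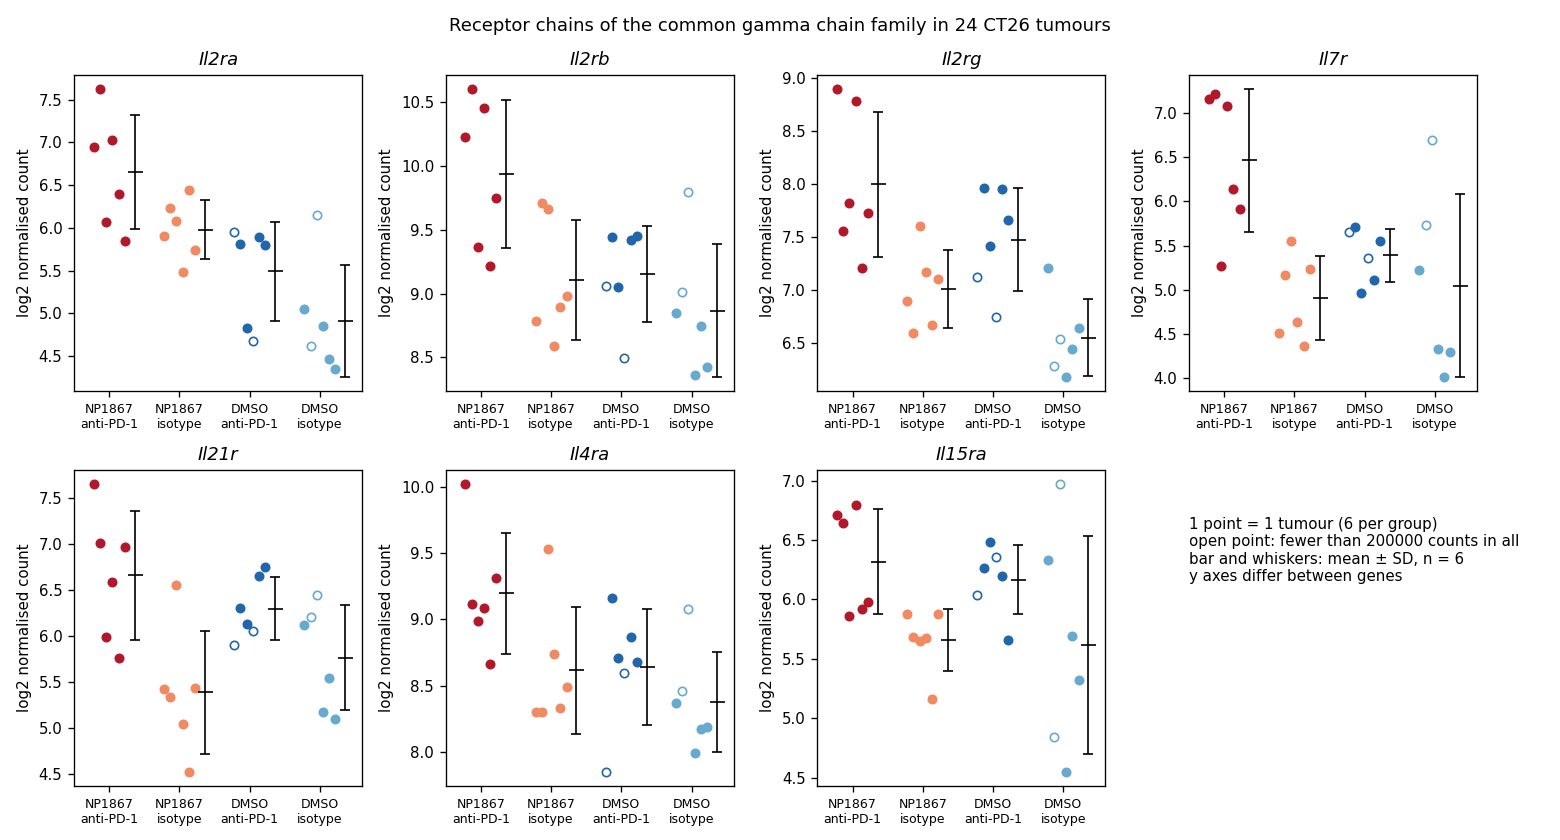
Log2 normalised counts of the 7 receptor chains (vertical axes, which differ between genes) in each of 24 tumours by group, with bars for the mean ± SD (n = 6 tumours) and open points for tumours of fewer than 200000 counts. Il2ra has medians of 6.67 and 5.99 in the NP1867 groups, above the 5.80 and 4.74 of the DMSO groups, whereas Il21r has 6.77 and 6.22 in the anti-PD-1 groups, above the 5.39 and 5.83 of the isotype groups.

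Il2rg, the shared signalling chain of the family, followed the antibody in both cultures. It ran from 7.21 to 8.89 (median 7.77) in NP1867 anti-PD-1 tumours and from 6.60 to 7.60 (median 7.00) in NP1867 isotype tumours. In DMSO anti-PD-1 tumours it ran from 6.75 to 7.96 (median 7.54) and in DMSO isotype tumours from 6.18 to 7.21 (median 6.49). In either culture 4 of 6 anti-PD-1 tumours were above every isotype tumour of that culture and 5 of 6 isotype tumours were below every anti-PD-1 tumour, an overlap of few tumours. Il2rg was 1.94-fold higher under anti-PD-1 than under isotype averaged over both cultures, 0.96 ± 0.19 (SE) on the log2 scale, with 0.99 ± 0.27 in NP1867 and 0.93 ± 0.27 in DMSO tumours.

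Il7r, the private chain for interleukin 7, had its highest levels in NP1867 anti-PD-1 tumours. It ran from 5.27 to 7.22 (median 6.61) in NP1867 anti-PD-1 tumours and from 4.36 to 5.55 (median 4.90) in NP1867 isotype tumours. In DMSO anti-PD-1 tumours it ran from 4.97 to 5.71 (median 5.45) and in DMSO isotype tumours from 4.01 to 6.70 (median 4.77). Among NP1867 tumours 5 of 6 treated with anti-PD-1 were above every isotype tumour, whereas among DMSO tumours none of the 6 was above tumour 23, the highest isotype tumour. The difference between anti-PD-1 and isotype was 1.56 ± 0.39 (SE) on the log2 scale in NP1867 and 0.34 ± 0.39 in DMSO tumours, and 0.95 ± 0.28 averaged. The DMSO value was 0.67 without tumour 23, which had 19 Il7r counts, and 0.87 without the 4 tumours of low counts. Between NP1867 and DMSO culture Il7r differed by 1.08 ± 0.39 under anti-PD-1 and -0.14 ± 0.39 under isotype. Without the 4 tumours of low counts these were 1.13 and 0.45, and the Il2ra culture difference under anti-PD-1 was 1.07.

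Il21r, the private chain for interleukin 21, had nearly the same mean in tumours of both cultures. It ran from 5.76 to 7.65 (median 6.77) in NP1867 anti-PD-1 tumours and from 4.53 to 6.55 (median 5.39) in NP1867 isotype tumours. It ran from 5.91 to 6.75 (median 6.22) in DMSO anti-PD-1 tumours and from 5.10 to 6.45 (median 5.83) in DMSO isotype tumours. All 12 anti-PD-1 tumours were above the mean of the 12 isotype tumours and 6 were above the highest of them. Il21r was 0.90 ± 0.23 higher under anti-PD-1 than under isotype on the log2 scale, with 1.27 ± 0.33 in NP1867 and 0.53 ± 0.33 in DMSO tumours. Between NP1867 and DMSO culture it differed by -0.01 ± 0.23, with 0.36 under anti-PD-1 and -0.38 under isotype. Without the 4 tumours of low counts the antibody difference in DMSO tumours was 0.97, and the culture difference was 0.20 under anti-PD-1 and -0.10 under isotype.

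Il2ra was also higher under the antibody. On average it was 1.54-fold higher under anti-PD-1 than under isotype, 0.63 ± 0.23 (SE) on the log2 scale, with 10 of 12 anti-PD-1 tumours above the isotype mean. The culture difference exceeded the antibody difference for Il2ra (1.11 against 0.63), and the reverse held for Il2rg (0.49 against 0.96), Il7r (0.47 against 0.95) and Il21r (-0.01 against 0.90). Without the 4 tumours of low counts the order was the same for each, with a culture and an antibody difference of 1.19 and 0.79 for Il2ra, 0.32 and 1.06 for Il2rg, 0.79 and 1.21 for Il7r and 0.05 and 1.12 for Il21r. These pairs of values come from 1 fit to the same tumours and chose the genes, so they are not tested.

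The other chains are the ones that the choice did not single out, and these were tested. Il2rb, the signalling chain for interleukins 2 and 15, ran from 9.22 to 10.60 (median 9.99) in NP1867 anti-PD-1 tumours and from 8.59 to 9.71 (median 8.94) in NP1867 isotype tumours. It ran from 8.49 to 9.45 (median 9.24) in DMSO anti-PD-1 tumours and from 8.37 to 9.80 (median 8.80) in DMSO isotype tumours. The groups overlapped, with 11 of 12 anti-PD-1 tumours above the isotype mean. Il2rb rose 1.47-fold under anti-PD-1, by 0.56 ± 0.19 (SE) on the log2 scale (limma, adjusted p = 0.0342).

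Il15ra, which presents interleukin 15 to neighbouring cells, ran from 5.86 to 6.80 (median 6.31) in NP1867 anti-PD-1 tumours and from 5.17 to 5.88 (median 5.68) in NP1867 isotype tumours. It ran from 5.66 to 6.48 (median 6.23) in DMSO anti-PD-1 tumours and from 4.55 to 6.97 (median 5.51) in DMSO isotype tumours, where tumour 23 was again the highest. All 12 anti-PD-1 tumours were above the isotype mean, and none was above tumour 23. Il15ra rose 1.52-fold under anti-PD-1, by 0.60 ± 0.22 on the log2 scale (limma, adjusted p = 0.0389).

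Il4ra, the chain for interleukins 4 and 13, ran from 8.67 to 10.03 (median 9.10) in NP1867 anti-PD-1 tumours and from 8.30 to 9.53 (median 8.41) in NP1867 isotype tumours. It ran from 7.85 to 9.16 (median 8.70) in DMSO anti-PD-1 tumours and from 7.99 to 9.08 (median 8.28) in DMSO isotype tumours. The groups overlapped widely, although 11 of 12 anti-PD-1 tumours were above the isotype mean. Its difference under anti-PD-1 was 0.43 ± 0.17 on the log2 scale and did not pass (limma, adjusted p = 0.0641), but passed at 0.63 without the 4 tumours of low counts (adjusted p = 0.00746).

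Against the background, 2 of these 3 chains were called higher under anti-PD-1, while 27% of the 600 tested genes were called higher and 2.33% lower. The median gene was itself 0.33 higher under anti-PD-1 on the log2 scale, and 162 genes were called higher and 14 lower. When each tumour was centred on its own median, the median gene stood at 0.04 and the split became 54 higher and 95 lower. On that scale Il2rb was 0.26 higher under anti-PD-1 (limma, adjusted p = 0.137) and Il15ra 0.31 higher (adjusted p = 0.250), neither past the threshold. Every chain kept a positive difference under anti-PD-1 after centring, at 0.66 for Il2rg, 0.66 for Il7r, 0.61 for Il21r, 0.33 for Il2ra and 0.13 for Il4ra.

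None of Il2rb, Il4ra and Il15ra was called between the cultures, where 1.17% of tested genes were called higher and 0.833% lower in NP1867 tumours. Il2rb differed by 0.51 ± 0.19 on the log2 scale (limma, adjusted p = 0.156), Il4ra by 0.40 ± 0.17 (adjusted p = 0.203) and Il15ra by 0.09 ± 0.22 (adjusted p = 0.823). The median gene differed by 0.18. Averaged over both antibodies, Il2ra had the largest difference by culture in the family. It stood at 0.91 after centring, when the median gene stood at -0.02. The signs for Il15ra and Il21r were negative after centring, at -0.11 and -0.21.

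**Figure D2:**
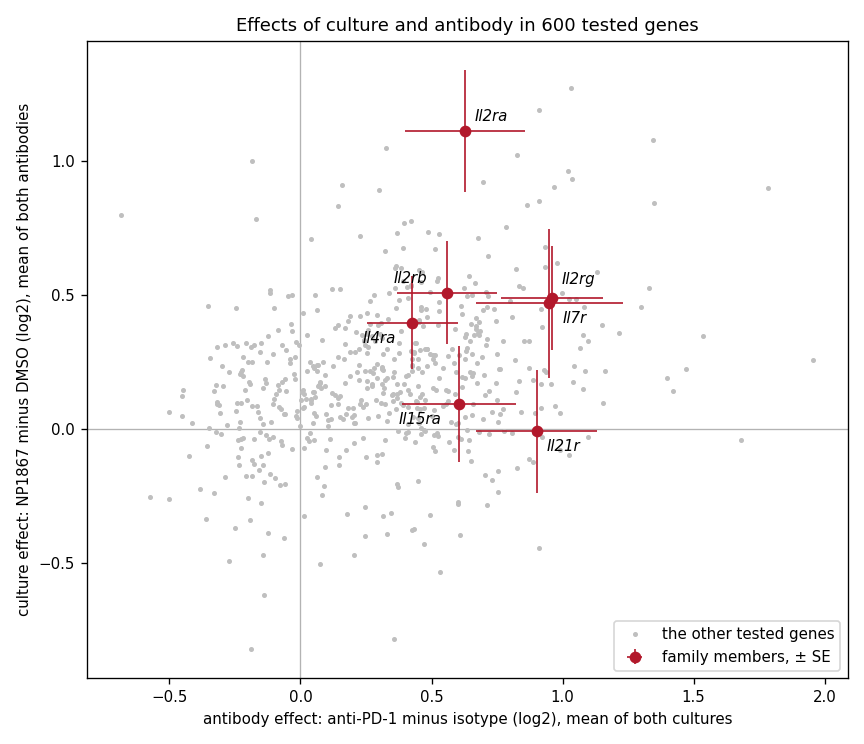
Antibody effect (horizontal axis, anti-PD-1 minus isotype, log2) against culture effect (vertical axis, NP1867 minus DMSO, log2) for 600 tested genes, with the 7 receptor chains in red and their SE as bars. Il2ra stands at the top of the family on the culture axis (1.11), Il2rg and Il7r farthest right on the antibody axis (0.96 and 0.95), and Il21r on the line of no culture difference (-0.01).

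The order of group means differed among the chains. For Il2ra both NP1867 groups led, with means of 6.65 ± 0.66 (SD, n = 6) under anti-PD-1 and 5.98 ± 0.34 under isotype, followed by 5.49 ± 0.58 in DMSO anti-PD-1 and 4.91 ± 0.66 in DMSO isotype tumours. The NP1867 isotype and DMSO anti-PD-1 means differed by 0.49, less than the pooled SD of 0.58. Il2rb, Il2rg and Il4ra ran NP1867 anti-PD-1, DMSO anti-PD-1, NP1867 isotype, DMSO isotype, and Il15ra had the same order. For Il2rb, Il2rg and Il4ra only the first step, from NP1867 anti-PD-1 to DMSO anti-PD-1 tumours, exceeded the pooled SD. Il7r and Il21r instead had the NP1867 isotype group last, at means of 4.91 ± 0.48 and 5.39 ± 0.66, but neither differed from the DMSO isotype group by more than the pooled SD. None of the 4 pairs of groups that differ in 1 factor was fully separated for any chain. Across all tested genes, 3.83% separated upward between anti-PD-1 and isotype in NP1867 tumours and 0.167% in DMSO tumours, and 0.667% between NP1867 and DMSO under anti-PD-1 and 0.167% under isotype. Between groups that differ in both factors, every NP1867 anti-PD-1 tumour was above every DMSO isotype tumour in Il2rg, by a gap that vanishes at this rounding. The share of all tested genes that separate between these groups was not computed, so nothing can be read from this separation.

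Ratios within a tumour do not depend on the scaling factor of that tumour. Those of Il2ra to Il21r, Il2rg and Il7r restate the values that chose these genes. Other ratios that hold any of these genes use such values too, so all of them are a description and no test. The log2 ratio of Il2ra to Il21r averaged -0.01 ± 0.74 (SD, n = 6) in NP1867 anti-PD-1 and 0.59 ± 0.79 in NP1867 isotype tumours. It averaged -0.81 ± 0.53 in DMSO anti-PD-1 and -0.85 ± 0.50 in DMSO isotype tumours. Of the 12 NP1867 tumours, 9 were above every DMSO tumour in this ratio. Zero on this scale has no meaning between probes, and only the 1.12 shift between the cultures can be read.

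The ratio to Il2rb, the partner chain in the interleukin 2 receptor, was also higher in the NP1867 culture, by 0.38 under anti-PD-1 and 0.83 under isotype. The ratio to Il7r behaved otherwise. It averaged 0.19 ± 0.38 in NP1867 anti-PD-1 and 1.07 ± 0.60 in NP1867 isotype tumours, against 0.10 ± 0.49 in DMSO anti-PD-1 and -0.13 ± 0.63 in DMSO isotype tumours. It was thus high in the NP1867 isotype group, where all 6 tumours exceeded the DMSO isotype mean, and differed by 0.08 between the cultures under anti-PD-1.

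**Figure D3:**
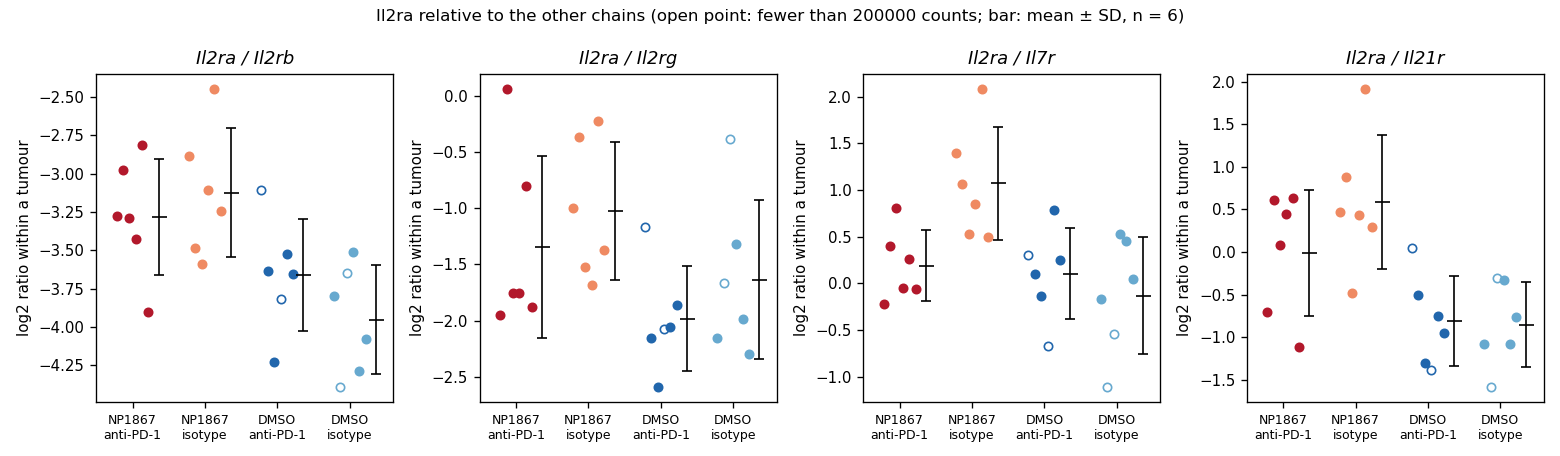
Log2 ratios of Il2ra to Il2rb, Il2rg, Il7r and Il21r within each tumour (vertical axes, which differ between panels), by group, with bars for the mean ± SD (n = 6 tumours) and open points for tumours of fewer than 200000 counts. The ratio to Il21r separates the cultures most, with means of -0.01 and 0.59 in the NP1867 groups and -0.81 and -0.85 in the DMSO groups.

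Some genes of most marker lists moved with the antibody beside these receptors, T cell and mast cell markers among them. Of 7 tested T cell markers 5 rose under anti-PD-1 and none fell, with a median of 0.70 on the log2 scale, beside 27% of all tested genes called higher and a median of 0.33. Cd3e, a chain of the T cell receptor complex, rose by 0.84 (limma, adjusted p = 0.0208) and Cd8a, the coreceptor of cytotoxic T cells and listed apart from the 7, by 0.99 (adjusted p = 0.00641). The summed level of the 10 T cell markers in the table ran from 631 to 1074 normalised counts in NP1867 anti-PD-1, 248 to 754 in NP1867 isotype, 525 to 755 in DMSO anti-PD-1 and 264 to 1026 in DMSO isotype tumours. The lowest count of a listed T cell marker was 1. Log2 values cannot hold a count of 0, so absence of a marker could not be seen. Of 5 tested mast cell markers 3 rose (Tpsab1, Cma1 and Fcer1a), with a median of 0.68, and their summed level had medians of 952 in NP1867 anti-PD-1, 423 in NP1867 isotype, 714 in DMSO anti-PD-1 and 388 in DMSO isotype tumours. Of the other lists, 1 of 6 macrophage markers rose (Cd68, by 0.58, limma, adjusted p = 0.0310), as did 1 of 4 NK cell markers (Klrk1). Also called were 2 of 6 fibroblast markers (Fap and Thy1) and 2 of 4 regulatory T cell markers (Ctla4 and Tnfrsf4). So were 1 of 3 neutrophil markers (Csf3r) and the 1 dendritic cell marker tested (Xcr1, 0.60). The medians were 0.35 for macrophage, 0.40 for NK cell and 0.62 for regulatory T cell markers. Those of fibroblast and neutrophil markers, 0.81 and 0.83, were above the 0.70 of the T cell markers. None of 5 endothelial, 3 carcinoma or epithelial and 1 B cell markers was called, with medians of 0.03, 0.05 and 0.70. Beside 27% of all tested genes called higher, these counts of few genes single out no cell type. The part of the number of any of these cells in the receptors' differences was not tested.

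With Ptprc, the pan-leukocyte gene CD45, as a covariate, the antibody difference was 0.70 for Il2rg, 0.61 for Il7r, 0.54 for Il21r, 0.51 for Il2ra, 0.42 for Il15ra, 0.28 for Il2rb and 0.16 for Il4ra. The median gene stood at 0.12, beside 0.33 without the covariate. Il15ra (limma, adjusted p = 0.211), Il2rb (adjusted p = 0.239) and Il4ra (adjusted p = 0.423) were not called.

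Relative to Cd3e, Il21r was nearly level over the groups. Its log2 ratio averaged -0.17 ± 0.38 (SD, n = 6) in NP1867 anti-PD-1 and -0.34 ± 0.46 in NP1867 isotype tumours, and -0.21 ± 0.33 in DMSO anti-PD-1 and -0.16 ± 0.35 in DMSO isotype tumours. Il2rg relative to Ptprc was higher under anti-PD-1 in both cultures, by 0.45 in NP1867 and 0.62 in DMSO tumours. All 12 anti-PD-1 tumours were above the isotype mean in that ratio. Il21r relative to Ptprc was also higher, by 0.73 in NP1867 and 0.22 in DMSO tumours, with 11 of 12 above the isotype mean. Relative to Cd3e, Il2rg differed under anti-PD-1 by -0.11 in NP1867 and 0.35 in DMSO tumours.

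Across the cultures, beside the Il2ra difference, none of the 7 T cell markers was called between NP1867 and DMSO tumours. Their median was 0.06, and Cd3e differed by 0.07 (limma, adjusted p = 0.897). Foxp3, the defining factor of regulatory T cells, differed by -0.08 (limma, adjusted p = 0.895). None of 4 tested regulatory T cell markers was called, with a median of 0.41. The difference was positive for 3 of these 4, the highest being Ctla4 at 0.55. Foxp3 had few counts, from 3 in NP1867 anti-PD-1 tumour 67 to 49 in a DMSO anti-PD-1 tumour, which limits ratios to it. With Ptprc as a covariate the Il2ra culture difference was 1.05, beside 0.08 for the median gene. The log2 ratio of Il2ra to Foxp3 averaged 2.22 ± 0.83 in NP1867 anti-PD-1 and 1.76 ± 0.63 in NP1867 isotype tumours, against 0.62 ± 0.57 in DMSO anti-PD-1 and 0.99 ± 0.48 in DMSO isotype tumours. This ratio holds the Il2ra values that chose the gene, so it is a description and no test. Under anti-PD-1 every NP1867 tumour (lowest 1.43) was above every DMSO tumour (highest 1.09) in that ratio, and all 12 NP1867 tumours were above the DMSO mean. This was 1 of 2 full separations among 72 comparisons of 18 chosen ratios, and no share over all gene pairs was computed. The other was Il21r to Ptprc in NP1867 tumours, from -3.16 to -2.04 under anti-PD-1 and from -4.11 to -3.16 under isotype, a gap that vanishes at this rounding.

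Whether the response to anti-PD-1 differed between the cultures was not used to choose the genes and was tested for all 7. No chain passed, nor did any of the 600 genes (limma, 0% called, 11 genes at an unadjusted p under 0.05), and each chain had an adjusted p of 0.995. Il7r had the largest difference of responses, 1.21 on the log2 scale with a 95% interval of 0.06 to 2.37 that is not adjusted for the number of genes. The intervals of the other chains all held 0: -0.21 to 1.69 for Il21r, -0.24 to 1.33 for Il2rb, -0.40 to 1.03 for Il4ra, -0.78 to 1.0 for Il15ra, -0.85 to 1.04 for Il2ra and -0.74 to 0.86 for Il2rg. Without the 4 tumours of low counts, all of them DMSO, the Il7r difference was 0.69, the Il21r difference 0.30 and the Il2rb difference 0.09 (adjusted p = 0.996 each). The responses of Il2rg were close to each other with and without them, at 0.99 in NP1867 tumours against 0.93 in DMSO tumours with all tumours and 1.13 in DMSO tumours without the 4.

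**Figure D4:**
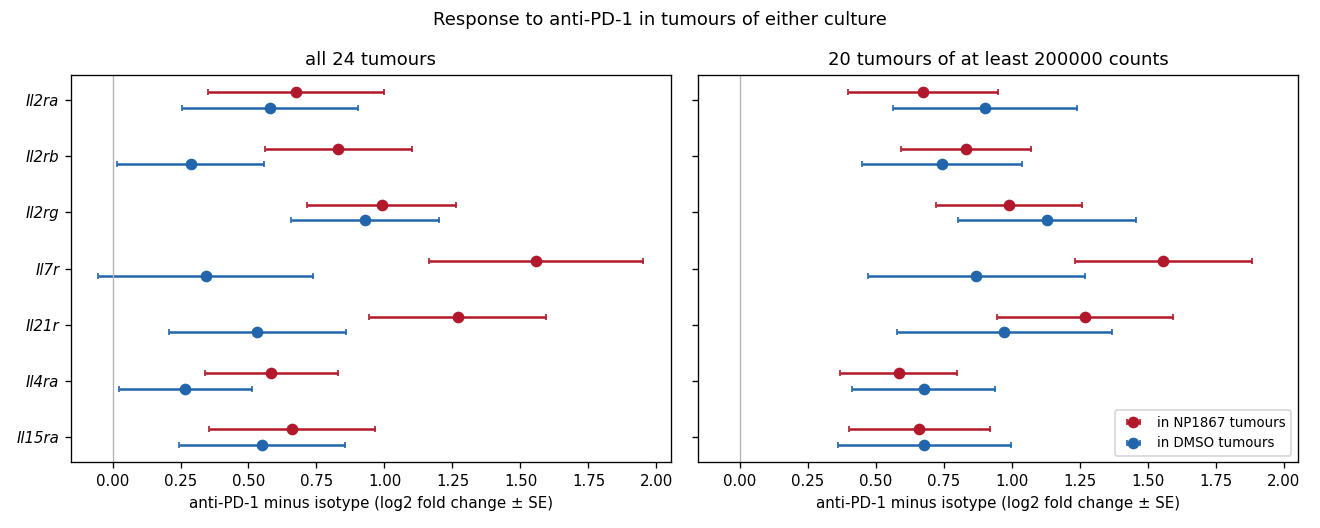
Log2 fold change ± SE under anti-PD-1 against isotype (horizontal axes) for each receptor chain, in NP1867 tumours (red) and DMSO tumours (blue), for all 24 tumours on the left and for the 20 of at least 200000 counts on the right. The gap for Il7r, 1.56 against 0.34 on the left, narrows to a DMSO value of 0.87 on the right.

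The ligands of these receptors were near the limit of the panel. Of 8 listed ligands 7 were in the table, and Il2, Il4, Il7, Il9, Il13 and Il21 were below the minimum, with median counts per tumour of 8.5, 7, 15, 14.5, 18.5 and 12. Differences in these were not assessed at this depth. Il15, the ligand presented by Il15ra, had 5 to 69 counts per tumour. It differed by 0.35 on the log2 scale between anti-PD-1 and isotype (limma, adjusted p = 0.172) and by 0.10 between the cultures (adjusted p = 0.793). Neither partner chain of the interleukin 13 receptors was called in any comparison: Il13ra1 differed by 0.38 under anti-PD-1 (adjusted p = 0.249) and 0.48 by culture (adjusted p = 0.293), and the decoy chain Il13ra2 by 0.21 (adjusted p = 0.520) and 0.36 (adjusted p = 0.407).

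Of the kinases, STATs and feedback genes downstream, 7 of 9 listed were tested. Jak1, a kinase that binds signalling chains such as those of Il2rb, Il7r, Il21r and Il4ra, was higher in the NP1867 culture, the only one called there. It ran from 8.74 to 9.74 (median 9.09) in NP1867 anti-PD-1 and from 8.73 to 9.55 (median 8.90) in NP1867 isotype tumours. It ran from 8.28 to 9.0 (median 8.62) in DMSO anti-PD-1 and from 8.28 to 8.70 (median 8.54) in DMSO isotype tumours. Under isotype every NP1867 tumour was thus above every DMSO tumour, while under anti-PD-1 the ranges overlapped. Jak1 rose 1.44-fold in NP1867 culture, by 0.52 ± 0.12 on the log2 scale (limma, adjusted p = 0.0163), but not past the threshold when tumours were centred (0.32, adjusted p = 0.0767) or without the 4 tumours of low counts (0.45, adjusted p = 0.0644). Socs1, a feedback inhibitor of JAK kinases, was the one called under anti-PD-1, at 0.37 ± 0.13 (adjusted p = 0.0352), and stood at 0.07, no longer called, when tumours were centred.

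The other members of that list were not called. Jak3, which binds the common gamma chain, differed by 0.14 under anti-PD-1 and 0.10 by culture, and Stat3 by 0.32 (limma, adjusted p = 0.0860) and 0.28 (adjusted p = 0.257). Stat5b, a transducer of interleukins 2, 7 and 15, differed by 0.06 under anti-PD-1 and 0.44 by culture (adjusted p = 0.117). Stat6, which serves interleukins 4 and 13, differed by 0.01 and 0.14, and the feedback gene Socs3 by 0.17 and 0.32 (adjusted p = 0.243). The list's median was 0.14 under anti-PD-1, beside 0.33 for all tested genes, and 0.28 by culture, beside 0.18.

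Of 15 tested genes known to be induced through interleukin 2 and STAT5, 5 rose under anti-PD-1 and none fell, beside 27% of all tested genes called higher. Their median was 0.50 on the log2 scale, beside 0.33. The 5 were the costimulatory receptor Icos (0.85, limma, adjusted p = 0.0110), the cytokine Ifng (0.73, adjusted p = 0.0460), the inhibitory receptor Ctla4 (0.67, adjusted p = 0.0389), Tnfrsf4 (0.65, adjusted p = 0.0420) and Tnfrsf9 (0.64, adjusted p = 0.0347). None of the 15 was called between the cultures, beside 1.17% of all tested genes called higher, and the median was 0.32, beside 0.18. Over the other settings Icos kept its call under anti-PD-1 in 31 of 33, Tnfrsf9 in 23 of 34, Ctla4 in 17 of 33, Ifng in 12 of 33 and Tnfrsf4 in 11 of 33. These 5 genes are also expressed by activated T cells generally.

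Genes induced through interleukin 4 or 13 and STAT6 gave 4 rises of 10 tested under anti-PD-1 and no fall, with a median of 0.70, beside 27% of all tested genes called higher and a median of 0.33. They were the chemokine Ccl24 (1.08), the chitinase-like Chil3 (0.91), Il1rn, which encodes the interleukin 1 receptor antagonist (0.91, limma, adjusted p = 0.00549), and the PD-1 ligand Pdcd1lg2 (0.89). Il1rn was the only one called by culture, higher in NP1867 tumours by 1.19 ± 0.21 (adjusted p = 0.00218), and it kept this call in 34 of 34 other settings. Under anti-PD-1 Pdcd1lg2 kept its call in 30 of 33 settings, Ccl24 in 19 of 33 and Chil3 in 9 of 33. Of 13 tested chains of other type I and type II cytokine receptors, 7 rose under anti-PD-1, led by Csf3r (1.07, adjusted p = 0.00292), with a median of 0.55 beside the same 27% and 0.33. None of the 13 was called by culture, where the median was 0.19 beside 0.18. Beside these 13, the Il2ra culture difference of 1.11 was larger than the largest of theirs, 0.40. Il2ra was picked with its culture difference already known and these 13 chains were not, so this order is a description and no test.

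The genes that varied most like each chain within the groups were not the same. Likeness was measured as Pearson's r of deviations from the group mean over the 24 tumours, which share scaling and depth, and is a description. Il2ra was most like the T cell genes Icos (r = 0.81) and Ctla4 (0.77) and the interferon-induced Ifitm1 (0.78), and Icos remained first after centring (0.78) and without the 4 tumours of low counts (0.91). Genes much like Il7r included Il18r1, a chain of the interleukin 18 receptor (0.90), the death receptor Fas (0.88) and Cd4 (0.88). Il2rb was most like Sh2d1a, an adaptor of T and NK cells (0.89), Fas (0.85) and Tnfsf13 (0.84). The median r of these chains with all tested genes was 0.30 for Il2ra, 0.51 for Il7r and 0.48 for Il2rb.

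For Il2rg, Il21r and Il4ra other genes came first. Il2rg was most like Lcp1, an actin-bundling protein of leukocytes (0.94, and 0.92 after centring), Slc11a1, a metal transporter of macrophages (0.88), and Prkcd (0.86). For Il21r and for Il4ra the macrophage gene Cd68 ranked first (0.88 and 0.89), though the values after centring were 0.72 for both. Next came Ada (0.86) and Nfatc1 (0.85) for Il21r, and Alcam (0.88) and Tnfrsf11a (0.87) for Il4ra. Il15ra was most like the immunoproteasome subunit Psmb10, Cd8a and Mefv (0.80 each), which without the 4 tumours of low counts stood at 0.70, 0.76 and 0.67, in places 10, 3 and 17. Without those tumours Tnfrsf11a was at 0.82 for Il4ra and Fas at 0.79 for Il7r, each in place 20.

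Among themselves, Il2ra and Il2rb, the private and signalling chains of 1 receptor, had r = 0.76 (0.72 after centring). Il2rb and Il7r had 0.78 (0.58), and Il2ra and Il7r 0.68 (0.53). Il21r and Il4ra, the neighbours on chromosome 7, had 0.78 (0.51), while the neighbours Il2ra and Il15ra had 0.42 (0.35). Il2ra and the common chain Il2rg had 0.25 (0.05), and Il2rg and Il7r 0.30 (-0.14). Without the 4 tumours of low counts Il2rg and Il7r had 0.56 and Il2ra and Il15ra 0.22.

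**Figure D5:**
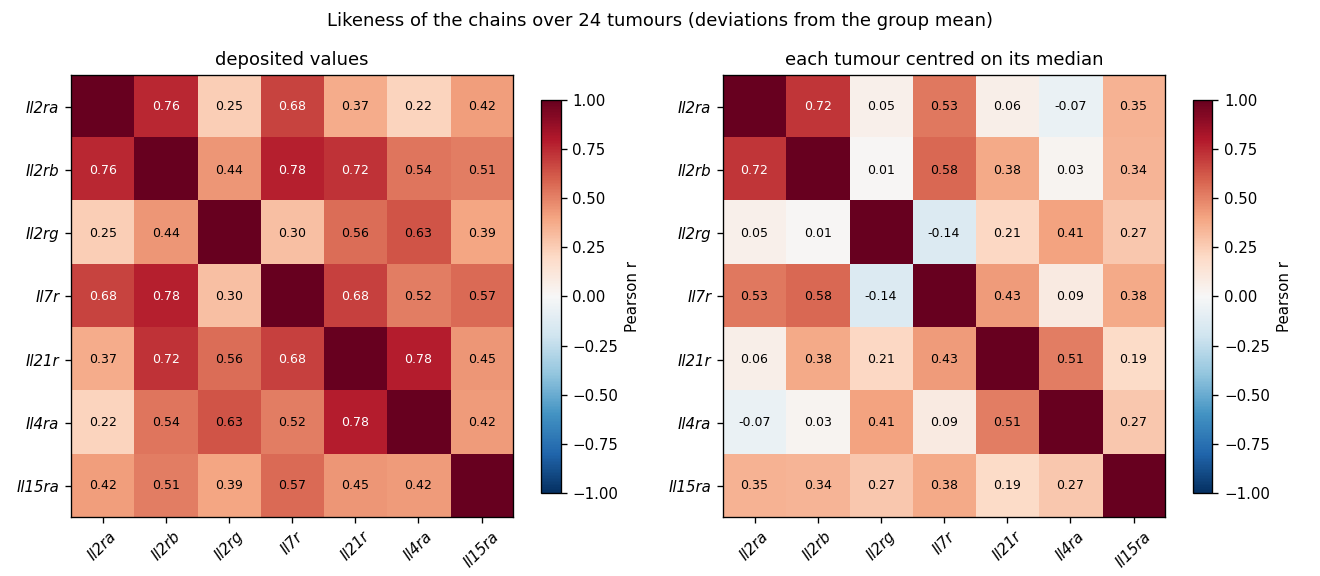
Pearson's r between receptor chains (both axes) over 24 tumours, from deviations from the group mean, for deposited values on the left and for tumours centred on their median on the right. Il2ra and Il2rb stay alike (0.76 and 0.72), whereas r of Il2ra and Il2rg is low on both scales (0.25 and 0.05).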

How the data were processed

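Tumour RNA was counted on a NanoString nCounter panel of mouse immune genes, from 3 sections of 10 um and 100 ng of RNA per tumour, per the labels' protocols. The authors deposited 1 table of log2 values for 750 genes in 24 tumours. Each value was, within 0.05 of a whole count, a whole number times 1 factor per tumour (0.522 to 5.46). The normalisation behind these factors is not given in the sources used here. Totals of 62699 to 687032 counts set the precision, and counting intervals cover counting error only.

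The deposited log2 values were used as they stand. limma 3.58.1 in R 4.3.3 fitted 4 group means to all 24 tumours (20 residual degrees of freedom, empirical Bayes with a mean trend, 4.33 prior degrees of freedom). The 600 genes averaging log2 of 20 or more were tested for the antibody effect, the culture effect and the difference of responses. P values were two-sided and adjusted by Benjamini-Hochberg over those genes, with a threshold of 0.05. Effects within 1 culture or 1 antibody were described without a test. Tumours are separate samples, but those sampled were picked near the mean volume of their group, so p values cover the spread of such tumours only. No batch is given in the labels.

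The members, gene lists and alternatives were chosen with earlier results of these data known. The genes named are the members, their ligands, partner chains and JAK and STAT genes, up to 6 called genes of each other list, a set of cell markers, and the 3 genes most like each member, of which 1 is not reported here. Other settings were 10 changes to the scaling, filter, model or tumours, and leaving out each of the 24 tumours. The fit was tested on simulated data. Symbols were matched to a RefSeq table on GRCm38.p6.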

Additional observations from a re-analysis of the deposited data

Results flagged for a closer look

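Of the 28 groups of 6 tumours checked for a value far from the rest (7 chains in 4 groups), 2 held one. In NP1867 isotype tumour 47, Il4ra stood at 9.53 on the log2 scale (647 counts), while the next highest of that group was 8.74, a gap of 0.641 of the group's range. In NP1867 isotype tumour 57, Il15ra stood at 5.17 (42 counts), while the next lowest was 5.65, a gap of 0.680 of the range. Both gaps are past the 95% limit of Dixon's test, which chance alone passes in about 1 in 20 groups. Without tumour 47 the Il4ra difference under anti-PD-1 was 0.52 and was called.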

How the results depend on the processing

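The count of genes called under anti-PD-1, 176 with all tumours, was 404 with array weights, 318 without the 4 tumours of low counts and 53 with Ptprc as a covariate. With 1 tumour left out it was 91 (without NP1867 anti-PD-1 tumour 78) to 308 (without DMSO isotype tumour 23), and it also moved by over 1.5 times without DMSO isotype tumour 55 (97) or 59 (116), DMSO anti-PD-1 tumour 7 (103) or NP1867 isotype tumour 57 (117). The culture count, 12, was 70 with array weights and 6 to 26 with 1 tumour left out: 6 without tumour 59 of DMSO isotype, 11 of DMSO anti-PD-1 or 45 of NP1867 anti-PD-1, 7 without 64 of DMSO isotype, 13 of DMSO anti-PD-1, 47 of NP1867 isotype or 78 of NP1867 anti-PD-1, 20 without NP1867 anti-PD-1 50 and 26 without DMSO isotype 23. The count for the difference of responses stayed at 0 in all settings. Under anti-PD-1 the sign of Stat6 turned, from a difference of 0.01 that was not called to -0.29 with tumours centred (limma, adjusted p = 0.0432) and -0.25 after quantile normalisation (adjusted p = 0.0455); the cause was not tested.

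Il2rb was called under anti-PD-1 in 19 of 34 settings (0.26 to 0.87) and Il15ra in 17 of 34 (0.15 to 0.74). Both lost the call with centring, quantile normalisation or Ptprc as a covariate. Il2rb also lost it without any 1 of 12 tumours (0.49 to 0.55): 55, 59 or 64 of DMSO isotype, 7, 43 or 74 of DMSO anti-PD-1, 10, 49 or 57 of NP1867 isotype, 78, 30 or 45 of NP1867 anti-PD-1. Il15ra lost it without any 1 of 14 (0.50 to 0.63): 6, 55, 59 or 64 of DMSO isotype, 7, 13, 37 or 43 of DMSO anti-PD-1, 10, 49 or 57 of NP1867 isotype, 78, 30 or 45 of NP1867 anti-PD-1. Il4ra gained it without 23 of DMSO isotype (0.50), 11 of DMSO anti-PD-1 (0.51), 47 of NP1867 isotype (0.52) or 50 of NP1867 anti-PD-1 (0.48). Socs1 was called in 19 of 34 settings (0.07 to 0.47) and Jak1 by culture in 32 of 34 (0.31 to 0.57). As values with no test, Il2ra by culture ran from 0.91 to 1.24 and the antibody differences from 0.66 to 1.06 for Il2rg, 0.48 to 1.21 for Il7r and 0.48 to 1.17 for Il21r. The Il7r difference of responses ran from 0.61 to 1.45, never called. No paired analysis was possible because the groups share at most 1 tumour number. Depth limits single values, most of all in the DMSO tumours of low counts: Il2ra had 6 counts in DMSO isotype tumour 6.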
